A study of Mus musculus with 20 samples.

Results

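Genes of insulin and insulin-like growth factor (IGF) signalling were followed in the cortex of aged APOE4 mice on a control or a ketogenic diet. They were chosen by name, with earlier results of these data known. The ligands were Igf1 and Igf2, the receptors Igf1r, Insr and Igf2r, the substrates Irs1 and Irs2, and the binding proteins Igfbp2, Igfbp4 and Igfbp5. These members are 10 of the 23413 gene names in the count tables. All 10 had counts in all 20 libraries and were among the 15660 genes tested.

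Insulin, IGF1 and IGF2 act through a family of receptor tyrosine kinases, in which Insr and Igf1r are close relatives. The activated receptors phosphorylate the adaptors Irs1 and Irs2, which recruit phosphatidylinositol 3-kinase and so activate AKT and mTOR and inhibit the FOXO transcription factors. Igf2r carries no kinase and takes IGF2 into lysosomes. The IGF-binding proteins are secreted and hold most IGF outside cells, which can block it or keep it in store. In the adult brain, Igf2 and Igfbp2 are known from the choroid plexus and the meninges, and Igf1 from neurons and microglia.

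The mice carried a knock-in of human APOE4 (labelled APOE4KI, in the B6(SJL) strain of the Jackson Laboratory), were bred in house and were 22 months old, and all groups shared that allele. Feeding began at the age of 10 months and lasted 12 months, on equal calories of a control diet (CD) or of a ketogenic diet (KD). Per the paper, the mice then went through behaviour tests and were killed after fasting for about 12 h, so the values are those of fasted mice. Of the females, 5 were on the CD and 4 on the KD, and of the males 5 were on the CD and 6 on the KD. Every mouse had a cage of its own. Each mouse gave 1 library of total RNA from the cortex. There was no group without APOE4, so the values describe the diet within this genotype. The RNA is that of bulk tissue, in which fewer cells of a type and less RNA per cell cannot be told apart.

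The counts summed to between 12207161 and 29109990 per library, with a median of 19356308. Library numbers fell into 2 series of 10, with 21015275 to 29109990 counts in series 1 and 12207161 to 17697342 in series 2, and each group had libraries in both. Xist reached 319 CPM or more in every female (CPM are counts scaled to a library total of 1000000), with a highest male value of 7.59 CPM, and Ddx3y reached 164 CPM or more in every male, with 14.0 CPM in CD female E228 and at most 1.64 CPM in the other females. All libraries held glial markers, with Aqp4 of astrocytes at 126 to 362 CPM and Cx3cr1 of microglia at 45.1 to 95.9 CPM. A set of 5 libraries stood apart by the summed CPM of 12 striatal markers (Drd1a and others), which was at least 1155.5 in them and at most 632 in the other 15. These were KD females E61, E68 and E207, CD female E249 and KD male E59. The 4 female libraries among them also had the lowest sums of 8 markers of cortical excitatory neurons, at 325 to 409 CPM against 719 to 986 CPM in the other 16. KD male E59 had 2187 CPM of Ttr, the carrier of thyroid hormone made by the choroid plexus, against at most 41.2 CPM elsewhere. Diet effects are also given without these 5 libraries where the effect changed most, with 1 KD female then remaining.

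Promoter sequences are shown for Igfbp4, Igfbp2 and Igf2, the 3 members with the largest diet effects over both sexes. Each runs 5′ to 3′ on the strand of the gene, from 250 bases before to 50 bases after the RefSeq start (GRCm38.p6), and capitals mark matches to a motif. They lie at chr11:99040994-99041293 on the plus strand, chr1:72824230-72824529 on the plus strand and chr7:142666767-142667066 on the minus strand, and each table entry is only one start of its gene.
Igfbp4: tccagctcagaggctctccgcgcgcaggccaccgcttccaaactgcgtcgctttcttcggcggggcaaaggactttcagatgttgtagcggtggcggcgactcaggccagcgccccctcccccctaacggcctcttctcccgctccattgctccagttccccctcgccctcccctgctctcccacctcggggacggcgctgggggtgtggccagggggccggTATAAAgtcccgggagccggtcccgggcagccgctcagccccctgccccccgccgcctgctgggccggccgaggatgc
Igfbp2: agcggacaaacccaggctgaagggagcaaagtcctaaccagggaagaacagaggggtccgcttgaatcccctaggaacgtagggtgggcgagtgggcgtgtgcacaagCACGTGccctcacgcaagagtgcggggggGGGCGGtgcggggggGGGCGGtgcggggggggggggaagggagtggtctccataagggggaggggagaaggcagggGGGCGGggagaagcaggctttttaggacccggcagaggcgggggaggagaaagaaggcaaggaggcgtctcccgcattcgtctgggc
Igf2: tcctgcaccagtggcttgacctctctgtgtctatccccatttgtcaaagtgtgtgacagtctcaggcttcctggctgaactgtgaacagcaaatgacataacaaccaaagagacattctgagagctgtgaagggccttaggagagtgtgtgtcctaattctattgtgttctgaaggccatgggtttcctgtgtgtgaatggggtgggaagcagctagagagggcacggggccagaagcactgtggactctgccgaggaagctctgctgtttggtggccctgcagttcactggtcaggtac

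The Igfbp4 promoter held 1 TATA box (TATAAA), which began 28 bases before the start, and no GC box (GGGCGG). The Igfbp2 promoter held 3 GC boxes, 37, 98 and 113 bases before the start, and 1 E-box (CACGTG). The Igf2 window matched none of the 6 motifs searched on both strands, which also included the FOXO site GTAAACA, the cAMP response element TGACGTCA and its core TGACG, which is a part of that element. Of all 27025 promoters in the table, 14.2% held TATAAA, 35.9% GGGCGG, 7.24% CACGTG, 3.55% GTAAACA, 1.88% TGACGTCA and 21% TGACG. Promoters were matched for 9 of the 10 members, all except Insr. None of the 9 held GTAAACA or the full TGACGTCA, and the core was found in Igf2r and Irs1. GC content was 71.3% in Igfbp4, 67% in Igfbp2 and 52.3% in Igf2, against a median of 52.7% over all promoters.

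The comparison of diets asked which members differed between KD and CD within each sex and over both sexes, the second being the mean of the effects in females and males. Igfbp4 was the only member to pass the threshold of FDR 0.1 and a 1.5-fold change, and it fell. It averaged 29.6 ± 12.4 CPM (SD, n = 4) in KD females against 65.1 ± 27.6 CPM (SD, n = 5) in CD females. In males it averaged 46.3 ± 12.6 CPM (SD, n = 6) on the KD against 80.4 ± 25.5 CPM (SD, n = 5) on the CD. Over both sexes Igfbp4 on the KD was at 0.511 times its level on the CD, with a log2 fold change of -0.97 (SE 0.21, 95% confidence interval -1.40 to -0.53, adjusted p = 0.0783 by edgeR's quasi-likelihood test). This was 1 of 10 members, where 0.268% of all genes tested were called. In females 0 of the 10 members were called, with 0.0447% of all genes, and in males 0, with 0% of all genes. At an unadjusted p under 0.05, edgeR gave 2 members in females (11.4% of all genes), 2 in males (3.56%) and 4 over both sexes (13.9%). At the threshold of FDR 0.1 and 1.5-fold, DESeq2's Wald test called 1 member in females, where it also called many more genes in all than edgeR (numbers at the end). In males it called 0 members and 0 genes in all. The median log2 fold change of the 10 members was -0.02 in females and -0.01 in males, against 0.013 and -0.003 over all genes tested.

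**Figure D1:**
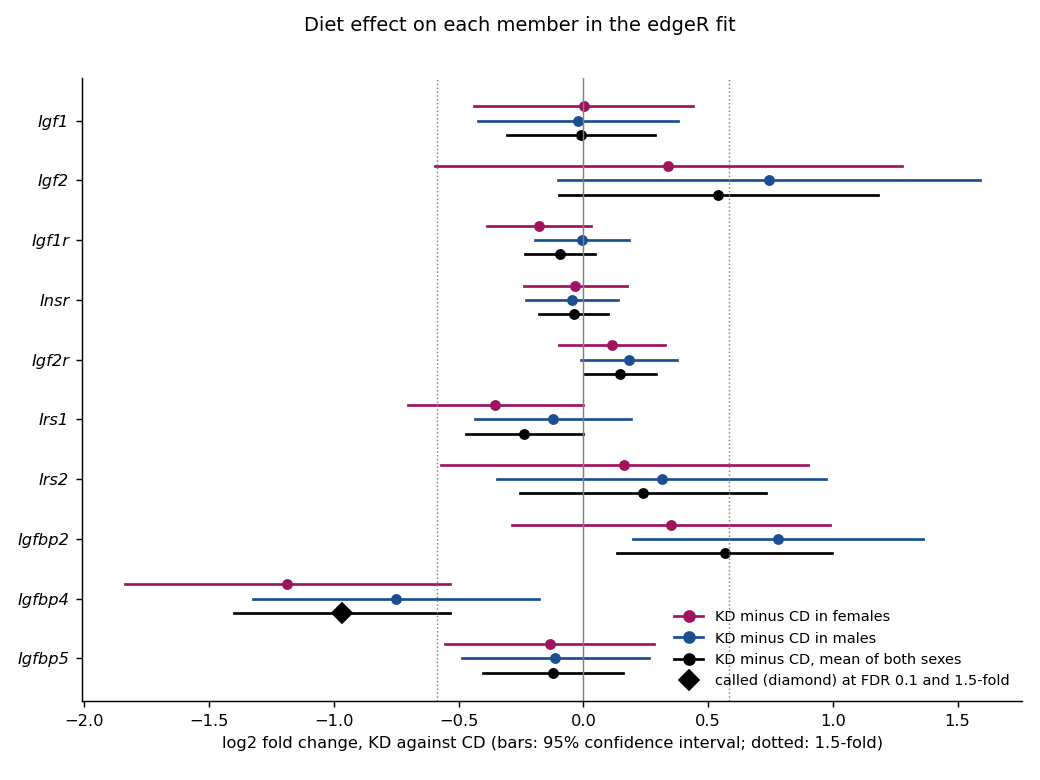
Log2 fold change of KD against CD (x axis) for each of the 10 members (y axis) in females, in males and as the mean of both sexes, with 95% confidence intervals from the edgeR fit. Dotted lines mark a 1.5-fold change. Only the mean effect on Igfbp4, at -0.97, is drawn as a called gene (diamond), and the intervals of Igf1, Insr and Igfbp5 all span 0.

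Of the ligands, Igf1 is the IGF through which growth hormone acts in most tissues. Females had 18.1 ± 5.27 CPM on the CD and 18.1 ± 4.66 CPM on the KD, and males 15.5 ± 1.96 and 15.7 ± 3.39 CPM (SD). The diet effect on Igf1 was 0.0013 in females (95% confidence interval -0.44 to 0.44) and -0.02 in males (-0.42 to 0.38) on the log2 scale. Without the 5 libraries rich in striatal markers the value in females, where 1 KD library then remained, was -0.49 (SE 0.25).

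Igf2, the growth factor expressed from the paternal allele in most tissues, was the most variable member. In CD females it was 13.5, 15.3, 16.4 and 18.3 CPM in 4 libraries and 53.2 CPM in E249. KD females had 18.1, 25.5, 37.8 and 40.6 CPM. CD males had 7.70, 11.5, 13.2, 13.4 and 31.0 CPM, and in KD males the lowest, median and highest libraries were at 15.7, 20.1 and 46.8 CPM. Every KD library lay above the CD median of its sex, but the ranges overlapped, in females through E249 and E67 and in males through E264. The log2 fold change was 0.34 (SE 0.45) in females, 0.74 (SE 0.40) in males and 0.54 (SE 0.31) over both sexes, with an adjusted p of 0.454 by edgeR for the last. Without E249 that value was 0.79 and was called, with an adjusted p of 0.0633, when 791 genes in all were called in place of 42. It was 1.34 in series 1 alone (adjusted p = 0.0149, with 886 genes called) and -0.31 in series 2 alone. Without the 5 libraries rich in striatal markers Igf2 was 0.11 in females (SE 0.61), 0.64 in males (SE 0.33) and 0.38 over both sexes. Exons of Igf2 overlap those of Gm49394 on the same strand and of Igf2os on the other, so reads there may not belong to Igf2 alone.

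Of the receptors, Insr was the steadiest member, followed by Igf2r and Igf1r. Insr, the insulin receptor, averaged between 108 and 118 CPM in all 4 groups, and the ratio of its highest to its lowest library was 1.40. Its diet effect over both sexes was -0.04 on the log2 scale, with an interval of -0.18 to 0.10, and it was -0.22 (SE 0.08, adjusted p = 0.604 by edgeR) without the 5 libraries rich in striatal markers. Igf1r, the receptor of IGF1, averaged 107 ± 9.41 CPM on the CD and 97.4 ± 14.6 CPM on the KD in females, and 107 ± 16.5 and 108 ± 12.6 CPM in males (SD). The log2 fold change of Igf1r was -0.18 in females (interval -0.39 to 0.03) and -0.01 in males (interval -0.20 to 0.18). KD females E61 and E68 had the lowest levels of all libraries, at 85.8 and 85.4 CPM, and the other KD females, at 103 and 115 CPM, lay within the CD range.

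Igf2r, which clears IGF2 and sorts lysosomal enzymes, had slightly higher values on the KD, without passing the threshold. CD females had 72.6, 86.7, 89.7, 96.7 and 97.9 CPM and KD females 89.0, 97.7, 103 and 109 CPM. CD males had 76.7, 78.8, 93.1, 94.5 and 97.1 CPM, and KD males had 88.7 at the lowest, 97.9 at the median and 128 CPM at the highest. Of the 10 KD libraries, 5 lay above every CD library, and none lay below the lowest CD library of its sex. The log2 fold change over both sexes was 0.15 (SE 0.07, interval 0.01 to 0.29), with an unadjusted p of 0.0431 and an adjusted p of 0.337 by edgeR. It lay between 0.08 and 0.20 under all alternatives other than leaving out single libraries, and its gene body is crossed by Airn, a non-coding RNA on the opposite strand.

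Of the substrates, Irs1 went in the opposite direction, and its difference did not pass the test either. It was 30.7, 38.1, 39.5, 42.2 and 56.1 CPM in CD females and 24.1, 32.7, 34.9 and 38.2 CPM in KD females, so all 4 KD females lay below the CD median. In males the CD libraries spanned 25.7 to 44.8 CPM and the KD libraries 27.2 to 46.8 CPM, almost the same range. The log2 fold change was -0.35 (SE 0.17, adjusted p = 0.435 by edgeR) in females and -0.12 (SE 0.15) in males. Without the 5 libraries rich in striatal markers it was -0.65 (SE 0.26, adjusted p = 0.882) and -0.12. Irs2, the second substrate, was counted less often, at 54 to 582 reads per library. Its group means were 7.98, 9.25, 9.90 and 12.3 CPM on the CD and the KD in females and then in males, with SDs of 3.90, 2.06, 3.79 and 6.12 CPM. The diet effect on Irs2 over both sexes was 0.239 (SE 0.236, interval -0.25 to 0.73) on the log2 scale.

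**Figure D2:**
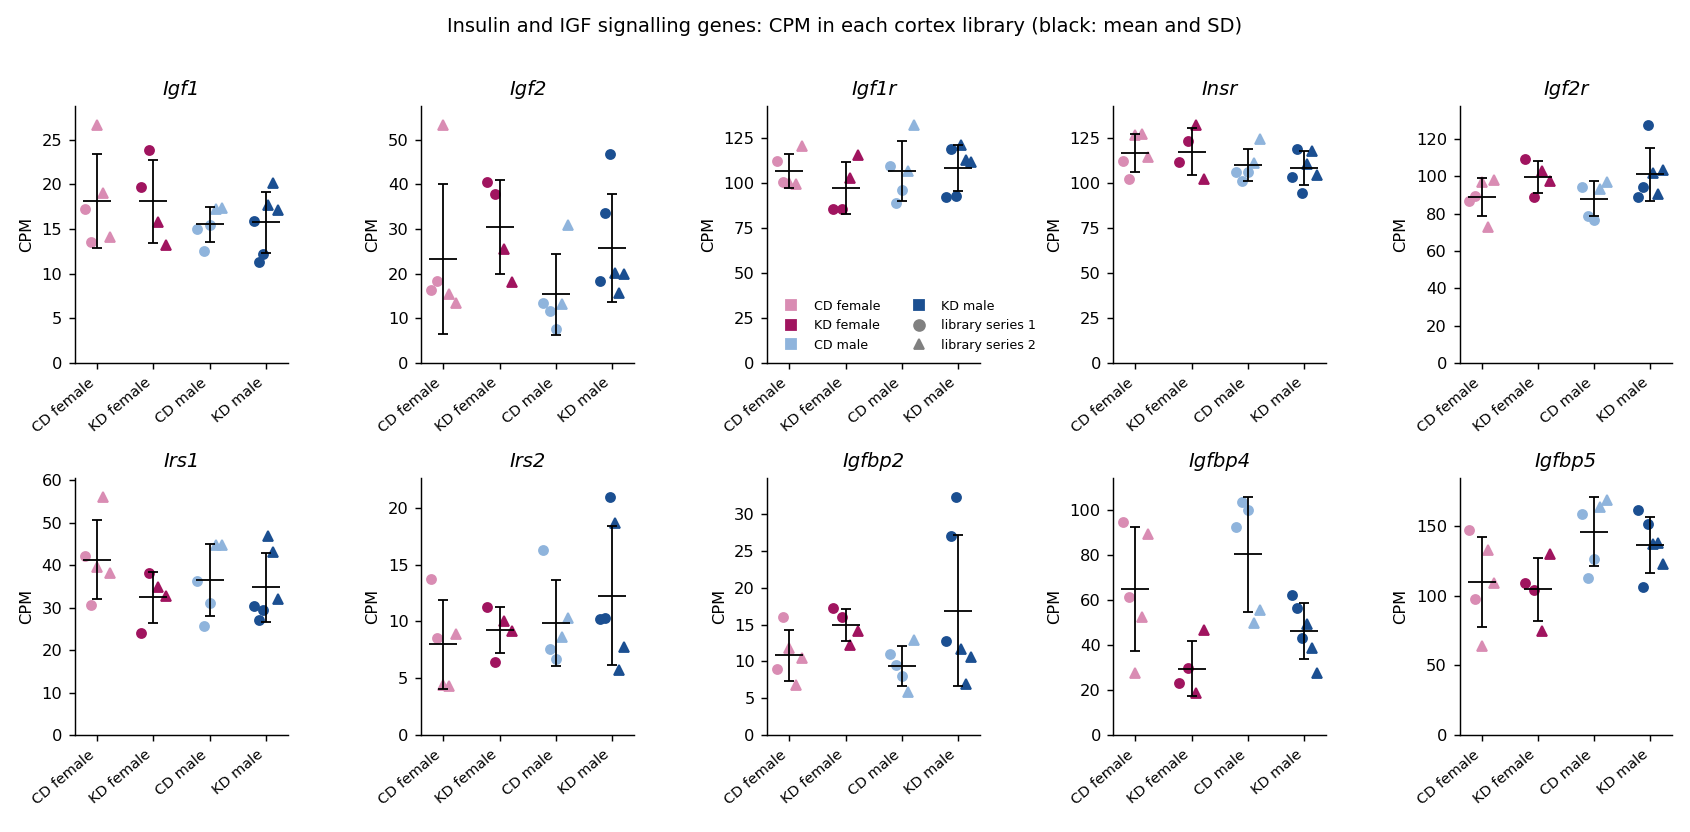
CPM (y axis, from 0) of each member in every library, by group (x axis), with circles for library series 1 and triangles for series 2, and the mean and SD of each group in black. The KD libraries of Igfbp4 lie low in both sexes, with KD females between 18.5 and 46.8 CPM, and a single CD female, E249, stands out in Igf2 at 53.2 CPM.

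Among the binding proteins, Igfbp4, which inhibits IGF action until it is cut by pappalysin, had the clearest pattern. CD females had 27.6, 52.5, 61.4, 89.6 and 94.6 CPM and KD females 18.5, 23.2, 29.9 and 46.8 CPM. CD males had 50.0, 55.7, 92.7, 99.9 and 104 CPM, and the 6 KD males ran from 27.6 CPM over a median of 46.3 to 62.4 CPM. All 10 KD libraries lay below the CD median of both sexes together, and the groups still overlapped in each sex. In females the overlap came from E249 alone, a CD library at the level of the KD group, and in males from KD males E59 and E53, the 2 highest of their group.

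The log2 fold change of Igfbp4 was -1.19 (SE 0.31, unadjusted p = 0.00119, adjusted p = 0.194 by edgeR) in females and -0.75 (SE 0.27, unadjusted p = 0.0129, adjusted p = 0.9998) in males. The effect in females minus that in males was -0.44 (SE 0.41, interval -1.29 to 0.42, unadjusted p = 0.300 by edgeR), so that a difference between the sexes was not shown. No member was called in that comparison, and 0% of all genes were, with 2.14% of all genes and 0 members at an unadjusted p under 0.05. DESeq2's Wald test called 0 members there, and at most 14 genes in all were called under any alternative other than leaving out single libraries. In series 1 the 3 KD males, at 43.2 to 62.4 CPM, lay below the 3 CD males, at 92.7 to 104 CPM, and in series 2 the 3 KD males, at 27.6 to 49.5 CPM, lay just below the 2 CD males, at 50.0 and 55.7 CPM. Such a separation was seen in 3.42% and 5.98% of all genes in these males. KD females lay below CD females in series 1, as did 21.1% of all genes, and overlapped with them in series 2. Other members were also separated within a series. KD lay above CD in females of series 1 for Igf1, Igf2 and Igfbp2 (32.5% of all genes). It did so in females of series 2 for Igfbp2 and Irs2 (10.1%) and in males of series 1 for Igf2 and Igfbp2 (4.26%). KD lay below CD for Igf1r in females of series 1, Irs1 in females of series 2 (3.6%) and Igfbp5 in males of series 2 (5.98%).

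The call of Igfbp4 depended on the libraries and on tissue markers. All 8 markers of cortical excitatory neurons were lower on the KD in both sexes, with medians of -0.97 in females and -0.21 in males on the log2 scale, and 4 of 8 and 0 of 8 had an unadjusted p under 0.05. Their sum ran from 367 to 986 CPM in CD females, from 325 to 796 CPM in KD females, from 827 to 985 CPM in CD males and from 739 to 905 CPM in KD males. All 12 striatal markers were higher on the KD in both sexes (medians 2.10 and 1.28), with 9 of 12 in females and 1 of 12 in males at an unadjusted p under 0.05 by edgeR. Their sums were 239 to 1155.5, 341 to 3170, 264.1 to 632 and 269 to 3732 CPM in the same order. The highest sum in males was that of KD male E59, and the median sum was 321 CPM in KD males against 304 CPM in CD males. The 4 lowest Igfbp4 values in females, 18.5 to 29.9 CPM, were in the 4 female libraries rich in striatal markers. Without the 5 libraries rich in striatal markers, the log2 fold change of Igfbp4 was -0.76 in males (SE 0.20), -0.50 in females (SE 0.36, with 1 KD female) and -0.63 over both sexes, with an adjusted p of 0.604 for the last by edgeR. KD male E59 was the only male among these libraries, so this fit says little on tissue content in males. All 9 oligodendrocyte markers were lower in KD males (median -0.43, 2 of 9 at an unadjusted p under 0.05 by edgeR). In KD females all 9 were higher (median 0.27, 0 of 9). The lowest oligodendrocyte sums were in KD males E64 and E254, at 1399 and 1562 CPM, with Igfbp4 at 43.2 and 27.6 CPM. A link of these markers with Igfbp4 was not tested. With the score of the cortical excitatory markers as a covariate, the value over both sexes was -0.59 (adjusted p = 0.432), and with the striatal score it was -0.74 (adjusted p = 0.469). In females alone the value of Igfbp4 was -0.55 with the excitatory score and -0.83 with the striatal score, against -1.19 with neither, and in males it was -0.64 and -0.66, against -0.75.

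The call of Igfbp4 over both sexes was also lost without any one of 13 libraries, with log2 fold changes of -1.003 to -0.85 and adjusted p of 0.107 to 0.255 by edgeR. These were CD females E62, E67, E265 and E228, KD females E61, E68 and E207, CD males E51, E58 and E66, and KD males E59, E64 and E254. In females alone, where 7 genes in all were called, Igfbp4 was called once CD female E249 (-1.36, adjusted p = 0.014) or KD female E227 (-1.66, adjusted p = 0.00385) was left out, and 1046 and 906 genes in all were called then. In series 1 alone the value over both sexes was -1.25 (adjusted p = 0.00478), and in series 2 alone it was -0.66 (adjusted p = 0.9997).

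**Figure D3:**
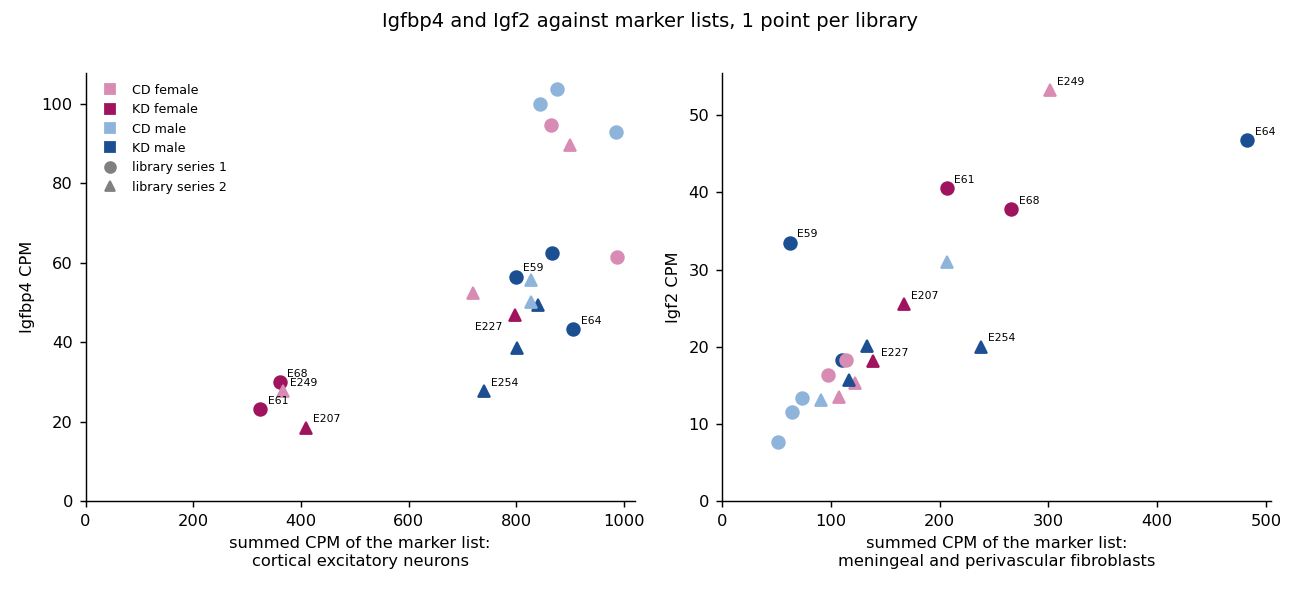
Left, Igfbp4 (y axis, CPM) against the summed CPM of 8 markers of cortical excitatory neurons (x axis), and right, Igf2 (y axis, CPM) against the summed CPM of 12 markers of meningeal and perivascular fibroblasts (x axis), with 1 point per library. The 4 female libraries with excitatory sums of 325 to 409 CPM lie at the lower left, and Igf2 rises with the meningeal sum (r = 0.82 on log2 values), with KD male E59 above the others at its sum.

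Igfbp2, a binding protein that is abundant in cerebrospinal fluid, was higher on the KD without passing the threshold. CD females had 6.83, 8.99, 10.4, 11.9 and 16 CPM and KD females 12.3, 14.1, 16.1 and 17.2 CPM. CD males had 5.77, 7.98, 9.55, 11 and 12.9 CPM, and KD males had 6.90 at the lowest, 12.3 at the median and 32.3 CPM at the highest. All 4 KD females exceeded the CD median, and KD males E59 and E64, at 27.0 and 32.3 CPM, were far above the rest. The log2 fold change was 0.35 (SE 0.30) in females, 0.78 (SE 0.28, unadjusted p = 0.0113, adjusted p = 0.9998 by edgeR) in males and 0.57 (SE 0.21, interval 0.13 to 0.997, adjusted p = 0.213) over both sexes. E59 was the library with the highest choroid plexus sum, 2445 CPM, and E64 the one with the highest meningeal sum, 483 CPM. Without the 5 libraries rich in striatal markers, E59 among them, the value was 0.66 over both sexes (adjusted p = 0.622). Igfbp2 was called in series 1 alone, at 0.83 (adjusted p = 0.0965), and without CD female E249, at 0.62 (adjusted p = 0.089), the settings with 886 and 791 genes called in all. In series 2 alone it was 0.22.

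Igfbp5, encoded next to Igfbp2 on the opposite strand of chromosome 1, did not follow it. Females averaged 110 ± 32.3 CPM on the CD and 104 ± 22.8 CPM on the KD, and males 146 ± 24.8 and 136 ± 19.9 CPM (SD). The diet effect on Igfbp5 was -0.13 (SE 0.20) in females and -0.11 (SE 0.18) in males, and the 2 diets overlapped over most of their ranges in both sexes with the library series pooled. In series 2 the 3 KD males, at 123 to 138 CPM, lay below the 2 CD males, at 164 and 168 CPM, as did 5.98% of all genes. In males of series 1 the diets overlapped.

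Between the sexes, over both diets, 0 of the 10 members were called, where 0.134% of all genes were, and 1 member had an unadjusted p under 0.05, with 13.6% of all genes. That member was Igfbp5, which was lower in females by -0.41 on the log2 scale (SE 0.14, interval -0.69 to -0.12, unadjusted p = 0.0073, adjusted p = 0.226 by edgeR). Igfbp4 had a value of -0.41 (SE 0.21, adjusted p = 0.398 by edgeR), which was called without KD female E227 (-0.62, adjusted p = 0.0462, with 813 genes called in all in place of 21) and was 0.13 without the 5 libraries rich in striatal markers. The cortical excitatory markers were also lower in females than in males, 8 of 8 with a median of -0.63, and with their score as a covariate the value of Igfbp5 was -0.15.

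Scaled to the length of their exons, the members covered a wide range. Igfbp5 was highest, at 20.9 ± 4.82 CPM per kb of exon over the 20 libraries (SD), followed by Igfbp4 at 12.7 ± 6.07, Igf2r at 10.1 ± 1.29, Insr at 8.20 ± 0.76 and Igfbp2 at 7.10 ± 3.53. Igf1r stood at 6.27 ± 0.77, Igf2 at 4.11 ± 2.22, Irs1 at 3.98 ± 0.89, Igf1 at 1.69 ± 0.39 and Irs2 at 1.58 ± 0.70 CPM per kb. Igfbp5 thus lay above 84.6% of the 14678 tested genes with a known length, and Irs2 above 29.0%. Some neighbours in this order did not differ beyond their spread: Igfbp2 exceeded Igf1r in 9 of 20 libraries, Igf2 exceeded Irs1 in 7 and Igf1 exceeded Irs2 in 12. Others held in nearly every library, such as Igf2r above Insr in 19 of 20 and Irs1 above Igf1 in 20 of 20. By group means Igfbp4 had rank 2 in CD females and CD males, at 14.8 ± 6.25 and 18.2 ± 5.78 CPM per kb. It had rank 5 in KD females, at 6.70 ± 2.80, and rank 3 in KD males, at 10.5 ± 2.85. The lowest female values were in the libraries rich in striatal markers. CD female E249 was among these, at 6.25 CPM per kb, below Igf2r, Igf2, Insr and Igfbp2. KD female E227, which was not rich in striatal markers, had 10.59 CPM per kb of Igfbp4 and 10.49 of Igf2r. In KD males Igf2r exceeded Igfbp4 in 3 of 6 libraries.

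**Figure D4:**
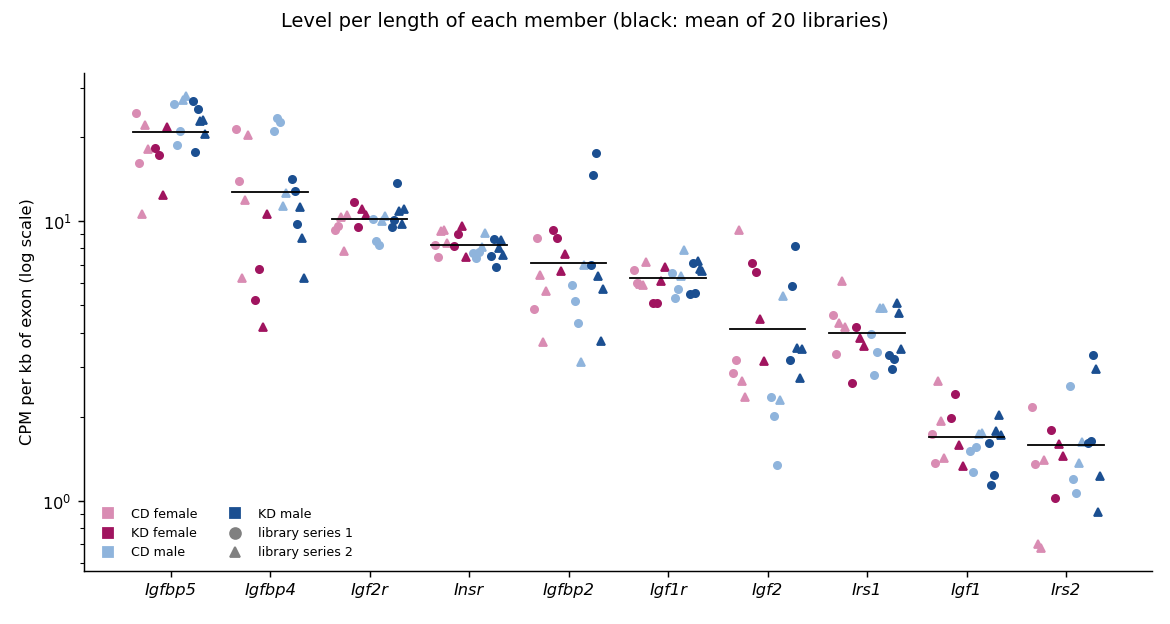
CPM per kb of exon (y axis, log scale) of the members in order of their mean over 20 libraries (x axis), with 1 point per library, coloured by group. Igfbp5 heads the order at a mean of 20.9 and Irs2 closes it at 1.58, and the points of Igfbp4, Igfbp2 and Igf2 scatter more widely than those of Insr.

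The members differed in how much they varied between libraries of one group. The SD of log2 CPM within groups was taken with the library series not removed, so it also holds any shift between the series. For Igfbp4, the CD males were at 92.7 to 104 CPM in series 1 and at 50.0 and 55.7 CPM in series 2. This SD was 0.13 for Insr, 0.16 for Igf2r and 0.19 for Igf1r, the 3 receptors. For Irs1, Igf1 and Igfbp5 it was 0.32, 0.33 and 0.33, and for Igfbp2, Igfbp4, Irs2 and Igf2 it was 0.54, 0.56, 0.59 and 0.67. The 4 most variable members thus include the 3 with the largest diet effect over both sexes, Igfbp4, Igfbp2 and Igf2.

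Over the 20 libraries, 5 of the 45 pairs of members were correlated at an adjusted permutation p under 0.05 for Pearson's r (log2 CPM, with the mean of each library series removed), and 3 of these also for Spearman's rho. The share of such pairs among all genes tested was not computed, so the count does not set the members apart from other genes. Igf2 and Igfbp2 varied together (r = 0.78, permutation p = 0.00011, adjusted p = 0.00247; rho = 0.85, permutation p = 2e-05, adjusted p = 0.0009). Igf2r and Igfbp2 did so too (r = 0.75, permutation p = 7e-05, adjusted p = 0.00247, with rho = 0.71 and p = 0.00055, adjusted p = 0.00825). Igf2 and Igfbp4 ran in opposite directions (r = -0.74, permutation p = 0.00018, adjusted p = 0.0027, with rho = -0.78 and p = 7e-05, adjusted p = 0.00157). Within series 1 and series 2 the r of these 3 pairs was 0.87 and 0.58, 0.80 and 0.63, and -0.87 and -0.52. Without the 2 libraries farthest from the median it was 0.77, 0.65 and -0.74, with group means removed 0.70, 0.66 and -0.66, and without the 5 libraries rich in striatal markers 0.85, 0.81 and -0.62. The other 2 pairs were Igf2r with Irs2 (r = 0.68, rho = 0.62) and Igf2 with Igf2r (r = 0.64, rho = 0.59), with permutation p of 0.00113 and 0.00203 for r (adjusted p = 0.0127 and 0.0183) and of 0.00483 and 0.00721 for rho (adjusted p = 0.0543 and 0.0649). Their r was 0.49 and 0.60 without the 2 farthest libraries, and it was 0.75 and 0.80 in series 1 and 0.63 and 0.31 in series 2.

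**Figure D5:**
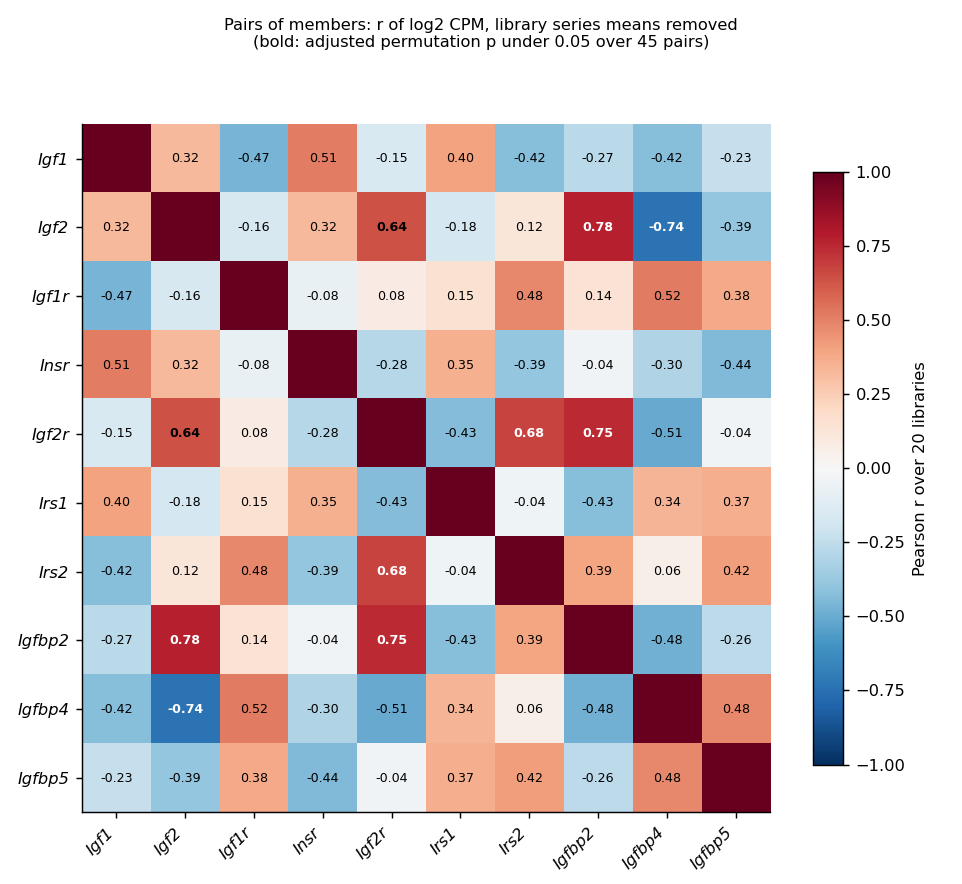
Pearson's r between each pair of members (both axes list the 10 members) over 20 libraries, from log2 CPM with library series means removed. Red marks positive and blue negative r, and bold numbers mark the 5 pairs with an adjusted permutation p under 0.05, of which Igf2 with Igfbp4, at -0.74, is the only negative one.

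Igf2, Igf2r, Igfbp2 and Igfbp4 also moved with markers of meningeal and perivascular fibroblasts, while the r of Irs2 with these markers was 0.15. This list was chosen after seeing the data and was the only marker list compared in this way. The p-values do not account for that choice. Group means were not removed, and the share of all genes tested that follow these markers was not computed. The list held 12 markers, Col1a1 among them, and all were detected. Their summed CPM ran from 97.3 to 302 CPM in CD females, 139 to 266 CPM in KD females, 51.5 to 206.99 CPM in CD males and 62.4 to 483 CPM in KD males. On the KD, 10 of the 12 were higher in females and 12 of 12 in males, with medians of 0.28 and 0.66 on the log2 scale. Over the 20 libraries the log2 sum was correlated with Igf2 (r = 0.82, permutation p = 4e-05, rho = 0.81, permutation p = 6e-05), Igf2r (r = 0.67, permutation p = 0.0013, rho = 0.54, permutation p = 0.0165), Igfbp2 (r = 0.62, permutation p = 0.00353, rho = 0.59, permutation p = 0.00724) and, in the opposite direction, Igfbp4 (r = -0.68, permutation p = 0.00091, rho = -0.71, permutation p = 0.00086). Over the 10 members compared, the adjusted p for r were 0.0004, 0.00433, 0.00882 and 0.00433, and for rho 0.0006, 0.0413, 0.0241 and 0.0043. Without the 2 farthest libraries r was 0.78, 0.57, 0.47 and -0.69, in series 1 it was 0.80, 0.79, 0.63 and -0.76, and in series 2 it was 0.89, 0.35, 0.60 and -0.57. With the meningeal score as a covariate, the log2 fold change of Igfbp4 over both sexes was -0.76 (adjusted p = 0.214 by edgeR). With the same covariate the value over both sexes went from 0.54 to 0.29 for Igf2, from 0.57 to 0.43 for Igfbp2 and from 0.15 to 0.0794 for Igf2r. Within the sexes Igf2 was 0.13 in females and 0.44 in males, and Igfbp2 was 0.25 and 0.61.

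Outside the 10 members, 72 further genes of the pathway were listed, of which 65 passed the filter. In each diet comparison 0 of the 65 were called, and at an unadjusted p under 0.05 edgeR gave 6 higher and 5 lower in females, 0 and 1 in males, and 7 and 6 over both sexes. Among all genes tested, 5.86% were higher and 5.5% lower in females at that threshold, 2.37% and 1.19% in males, and 7.41% and 6.44% over both sexes. DESeq2's Wald test called 0 in females, 0 in males and 1 over both sexes, where it also called many more genes in all than edgeR (numbers at the end). The median log2 fold change of the 65 was 0.0011 in females and -0.04 in males, against 0.013 and -0.003 over all genes tested. Of the 13 tested ligands, receptors, substrates and binding proteins, 3 were higher and 1 lower in females at that threshold, of the 21 adaptors and negative regulators 1 and 3, and of the 31 genes of the PI3K, AKT, FOXO and mTOR pathway 2 and 1. Both insulin genes, Ins1 and Ins2, were below the filter, as were Irs3, Igfbp1, Igfals, Igf2bp1 and Socs1.

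The pathway genes of smallest p over both sexes were Foxo1, a transcription factor held back by insulin, Irs4, a receptor substrate, and Pik3r1, the regulatory subunit of phosphatidylinositol 3-kinase. Foxo1 averaged 23.9 ± 9.93 CPM in KD females and 12.1 ± 4.82 CPM in CD females (SD), with a log2 fold change of 0.75 over both sexes (SE 0.24, adjusted p = 0.168 by edgeR). Its 5 highest libraries, at 19.3 to 36.2 CPM, were the 5 rich in striatal markers, and without them its diet effect was 0.19 (SE 0.16). Pik3r1 differed by -0.25 (SE 0.08, adjusted p = 0.169 by edgeR) and was 269 ± 18.3 CPM in KD females against 304 ± 31.7 CPM in CD females, and 287 ± 43.2 CPM in KD males against 340 ± 22.7 CPM in CD males (SD). Irs4 was at 8.19 to 17.7 CPM in the 4 female libraries rich in striatal markers and at most 1.495 CPM in all others, and its diet effect was 2.004 (SE 0.64, adjusted p = 0.168 by edgeR), or 1.69 (SE 0.40, adjusted p = 0.604) without the 5 libraries. Irs4 was also the only pathway gene called between the sexes, higher in females by 2.96 on the log2 scale (SE 0.62, adjusted p = 0.0888 by edgeR), against 0.28 (SE 0.41) without the 5 libraries rich in striatal markers, when 0 pathway genes were called. Pappa, the protease that cuts Igfbp4, followed at 1.37 (SE 0.32, adjusted p = 0.14 by edgeR), and its levels were 4.64 to 6.29 CPM in the same 4 female libraries and at most 1.78 CPM in all others. Enpp1, an inhibitor of the insulin receptor, was at 0.67 (SE 0.18, adjusted p = 0.167). Without the 5 libraries Pappa was at 0.0493 and Enpp1 at 0.22. Within females, Irs4 (2.85), Foxo1 (0.94) and Grb10, an adaptor that restrains the insulin and IGF1 receptors (0.56, SE 0.21), had the smallest p, with adjusted p of 0.232, 0.309 and 0.304. Grb10 was at 106 to 143 CPM in the 4 female libraries rich in striatal markers and at most 81.1 CPM in all others, and its value in females was -0.17 (SE 0.16) without the 5 libraries. KD male E59, with the highest striatal sum, had 0.571 CPM of Irs4, 0.838 of Pappa and 58.7 of Grb10. The same 4 female libraries also had the highest sums of 9 hypothalamic markers, at 2.70 to 25.9 CPM against at most 1.60 CPM elsewhere. Only 2 of the 9 passed the filter. Which tissue these genes follow was not tested. In males the 3 smallest p belonged to Pik3r1, Sh2b2 and Igfbp3, with adjusted p of 0.9998 and log2 fold changes of -0.27, 0.55 and 0.50. The effect of the diet differed most between the sexes in Socs2, Gab1 and Pappa (-0.72, 0.47 and 1.44 in females minus males, or -0.25, 0.22 and 0.0259 without the 5 libraries), with adjusted p of 0.9999 by edgeR.

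For 9 of the members, the 2 tested genes most like each were taken as those with the highest r of log2 CPM over the 20 libraries, with series means removed. Igf2 was most like Myof and Slc13a4 (r = 0.96 for both), Igfbp4 most like BC049635 and Pex5l (0.94 and 0.93), and Igfbp2 most like Pcolce and Dsp (0.88 and 0.87). Irs2 was closest to Trio and Srf (0.95 for both), Igf2r to Nos1 and Dpysl5 (0.93 for both), and Igf1 to Rsbn1 and Kansl1l (0.92 and 0.91). Insr was closest to Arhgef12 and Zfp937 (0.89 for both), Igf1r to Zmiz1 and Iqsec2 (0.87 and 0.85), and Irs1 to Zbed4 and Slc38a2 (0.84 and 0.82). These values are the highest of 15660 genes and share the depth and the tissue of the libraries, and they are given as a description. No member was among the genes named here.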

How the data were processed

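The authors aligned 50-bp read pairs of stranded total RNA libraries to mm10 with STAR, per the labels and the paper, and deposited counts of reads per gene for each of the 20 mice, without normalization. Versions, the annotation and the strand counted are not given in the sources used here. Groups came from the sample labels (SD there is the CD here) and the series from the library numbers. Replicates are single mice, and no number is shared between groups.

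CPM were computed from the deposited counts, and a prior count of 2 was used for log2 CPM. Exon lengths came from GENCODE M21, in which 21777 of the 23413 names were found, and promoters from RefSeq GRCm38.p6. In R 4.3.3, edgeR 4.0.16 was run on the 15660 genes that passed filterByExpr, with upper-quartile normalization, the 4 groups and the library series in one model, and robust quasi-likelihood F tests. P-values were adjusted over all genes tested (Benjamini-Hochberg), and genes were called at FDR 0.1 and a 1.5-fold change. The study's RUVg step was run only as an alternative, with an implementation written for this work, since its factors and control genes are not stated. Correlations were tested by 100000 permutations. The fit was tested on simulated counts of 15495 genes, of which 197 differed 2-fold. It recovered 88.3% of them in the mean of both sexes, 72.1% in females and 81.2% in males, with 9, 8 and 14 unchanged genes called. The simulated libraries had a common mean per gene apart from these changes, with no series effect, tissue difference or correlation between genes. The shares recovered may therefore be higher than in the real libraries.

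The members and lists were chosen with earlier results of these data known. Named genes were the 10 members, the other pathway genes called or among the 3 of smallest p in a comparison, the 2 genes most like each member (not reported here for Igfbp5), Ttr, Col1a1, Drd1a, Cx3cr1 and Aqp4 as markers, and Xist, Ddx3y and Apoe as label checks. Mouse Apoe, which the human allele replaces, was at 1.33 to 3.34 CPM. Alternatives were TMM, DESeq2's size factors, DESeq2 1.42.0, the likelihood ratio test, other filters, no series term, RUVg, marker scores as covariates, each series alone and each library left out. The excitatory score, the libraries rich in striatal markers left out, group means removed and the meningeal correlations were chosen after seeing the data. Counting error and any shift between the library series are contained in the SD between mice of a group.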

Additional observations from a re-analysis of the deposited data

Results flagged for a closer look

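Igf2 in CD female E249, at 53.2 CPM, lay far above the other 4 CD females: the gap to the next library was 0.780 of the range of the group in log2 CPM, which passed Dixon's test. This was 1 of the 40 combinations of member and group tested, and chance would give about 2. E249 also had the highest meningeal sum of the CD females, 302 CPM, and was 1 of the 5 libraries rich in striatal markers.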

How the results depend on the processing

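The 40 group means of the members moved by less than 1 SD with upper-quartile scaling, the 25 correlation values kept their sign, and of the log2 fold changes 1120 kept direction and call, 12 passed and 19 lost the threshold, and 73 changed sign. The cause was not tested where none is named.

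Members called in females numbered 1 (Igfbp4) with DESeq2, the likelihood ratio test, RUVg with 1 or 2 factors and series 1 alone, and 0 to 1 with a library left out. Over both sexes they numbered 0 with the striatal, choroid plexus, meningeal or excitatory score, without the libraries rich in striatal markers and in series 2 alone, 3 in series 1 alone, and 0 to 3 with a library left out. Between the sexes they numbered 0 to 1 with a library left out. Other pathway genes called in females numbered 1 and 2 with RUVg of 1 and 2 factors, 5 in series 1 alone and 0 to 7 with a library left out. Over both sexes they numbered 1 with DESeq2, 2 with the likelihood ratio test, 2 and 1 with RUVg, 5 in series 1 alone and 0 to 4 with a library left out. Between the sexes they numbered 2 with DESeq2, 3 with the likelihood ratio test, 4 with the choroid plexus score, 2 in series 1 alone and 0 to 5 with a library left out, and 0 with other filters, RUVg, the other scores, the striatal libraries left out and series 2 alone. Among all genes, at most 865 were called in females (series 1 alone), and 0 to 1046 with a library left out. Over both sexes at most 886 were called (series 1 alone), and 2 to 791 with a library left out. Between the sexes at most 355 were called (choroid plexus score), and 8 to 813 with a library left out. For the likelihood ratio test and RUVg the number of all genes called is not given here. The calls in single settings are not set against the share of all genes called there. They therefore do not set Igfbp4 or the other pathway genes apart from other genes.

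Signs changed mainly for effects near 0 on the log2 scale. Igf1 in females was -0.000424 with TMM, -0.00668 with DESeq2's size factors, -0.00677 with DESeq2, -0.00909 with no filter, -0.0577 with no series term, -0.011 with 2 RUVg factors, -0.0752, -0.0645 and -0.37 with the striatal, meningeal and excitatory scores, -0.49 without the striatal libraries and -0.53 in series 2 (-0.21 to 0.18 with a library left out). Igf1 in males was 0.0109 with no series term, 0.0068 with the choroid plexus score, 0.0171 without the striatal libraries and 0.0924 in series 2 (-0.0917 to 0.0499). Igf1 over both sexes was 0.00271 with 1 RUVg factor, 0.0115 with the choroid plexus score and 0.15 in series 1 (-0.12 to 0.0739). Igf2 was -0.25 and -0.32 in females with the striatal and excitatory scores, and in series 2 it was -0.39 in females, -0.24 in males and -0.31 over both. Igf1r in males was 0.000328 with TMM, 0.0141 with no series term, 0.00937 and 0.0204 with RUVg, 0.031 and 0.0161 with the meningeal and excitatory scores and 0.00826 in series 1 (-0.0742 to 0.044). In series 1, Insr was 0.0933 in females (-0.094 to 0.0548) and 0.0317 over both sexes (-0.0714 to 0.00089), Irs2 was -0.37 in females and Igfbp5 0.0338 in males. Igfbp5 in females was 0.014 with 2 RUVg factors, 0.35 and 0.22 with the striatal and excitatory scores and 0.00131 without the striatal libraries (-0.27 to 0.0021), and over both sexes 0.16 and 0.0842 with those scores. The difference of the diet effect between the sexes was 0.0917 with the excitatory score and 0.26 without the striatal libraries for Igfbp4, and 0.0112 without them and 0.31 in series 2 for Igfbp2. Between the sexes Igfbp4 was 0.0945 with the excitatory score and 0.13 without the striatal libraries.

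All genes called numbered 7 in females, against 253 with DESeq2's Wald test and 865 in series 1 alone, and 42 over both sexes, against 351 and 886. Between the sexes they numbered 21, 212 and 76. Depth limited Irs2 most, at 54 counts in its lowest library. No paired analysis was possible because the groups share no replicate numbers.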
